A study of Mus musculus with 18 samples.

Results

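The question was whether the early response of the cerebellum to paraquat differed between mice labelled as over-expressing apolipoprotein D (ApoD) and mice that lack it. It was read as a difference of differences on log2 expression values, the paraquat effect (paraquat minus saline) in ApoD transgenic mice minus that in ApoD knock-out mice, so that a value below 0 means a weaker rise or a deeper fall in the transgenic. The members were the 12 arrays that the titles assign to transgenic or knock-out mice with or without paraquat, 3 in each of 4 groups, out of 18 arrays in the series. The 6 wild-type arrays are not part of the difference. They entered the shared estimate of the spread and the filter on low values, chose the paraquat-responsive genes followed below, and serve as a reference for Apod and for the size of the paraquat effects.

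All groups were adult male mice of 80 ± 5 days whose cerebellum was profiled on Affymetrix 3′ expression arrays. The paraquat groups received 1 intraperitoneal injection of 30 mg/kg in 200 µl of saline, the other groups saline of similar volume, and the tissue was taken 6 h later. Each group held 9 mice, pooled by 3 for each array, so the replicates are pools, and their spread leaves out part of the spread between mice. The knock-out lacks ApoD in both treatments, and the transgenic is described as over-expressing it in neurons in both treatments, which the Apod values below did not show; the promoter, the species of the transgene and the number of founder lines are not given in the sources used here. Paraquat is written in the titles of the arrays that had it; the others were read as saline because the protocol gives no treatment besides these.

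Paraquat is a herbicide that cycles between redox states inside cells and passes electrons to oxygen, which generates superoxide. ApoD is a secreted lipocalin that binds small hydrophobic lipids and is made in the brain mainly by glia, and its expression is known to rise with oxidative stress and ageing. A systemic toxic challenge also raises circulating glucocorticoids, whose receptor binds palindromic DNA elements and within hours switches on genes such as Fkbp5, Sgk1 and Tsc22d3 in brain tissue.

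The cerebellar granule and Purkinje neuron markers Gabra6, Cbln1, Zic1, Pcp2, Calb1 and Car8 lay on average at or above the 98.9th percentile of the array, with the granule neuron gene Cbln3 at 89.5 and the Bergmann glia gene Gdf10 at 90.7. Among the arrays, 1 knock-out paraquat array (replicate 2) stood apart, with a median of 6.99 where all other arrays had 7.103 to 7.152. Its correlation with the other arrays averaged 0.972, and no other array was below 0.986. A second array went against its label. On the array labelled transgenic paraquat replicate 3, the 127 genes that rose with paraquat in wild-type had a mean of 7.78, below all 3 transgenic saline arrays (7.83 to 7.92), while transgenic paraquat replicates 1 and 2 reached 8.22 and 8.08. Of these 127 genes, 116 were nearer on that array to the transgenic saline mean than to the knock-out paraquat mean, against 60 and 86 on the other two transgenic paraquat arrays. Both transgenic arrays numbered 3 also had the smallest 3′ minus 5′ differences of the control pyruvate carboxylase, 1.82 (saline) and 1.95 (paraquat) against 2.25 to 3.16 elsewhere. A smaller difference means less 3′ bias and is not a mark of degraded RNA. The part of these array properties in the results was not tested, and the main results are given with and without the arrays labelled knock-out paraquat 2 and transgenic paraquat 3.

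The targeted gene came first as a check of the labels. With saline, Apod read 12.47, 12.38 and 12.54 in wild-type but 8.40, 8.22 and 8.50 in the knock-out, a difference of -4.09 on the log2 scale (adjusted p = 5e-14). It read 12.25, 12.28 and 12.35 on the transgenic saline arrays, which differed from wild-type by -0.17 (adjusted p = 0.48), so over-expression was not visible on this probe set and the transgenic label could not be checked with it. Whether this probe set lies in the deleted part of the gene, or reads the transgene, is not given in the sources used here.

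Of 8298 genes tested, 4 had a paraquat effect that differed between transgenic and knock-out at an adjusted p under 0.05 (0.0482%), 3 of them below 0 (0.0362%) and 1 above (0.0121%). Lcn2, Sgk3 and Apod rose with paraquat in the knock-out and did not pass the test in the transgenic, and Fos fell in the knock-out and did not pass it in the transgenic. At an unadjusted p under 0.05 there were 337 genes (4.06%), 130 below 0 (1.57%) and 207 above (2.49%). Taken alone, the paraquat effect called 188 genes in the knock-out (2.27%) and 0 in the transgenic, where limma gave 117 genes an unadjusted p under 0.05 (1.41%). Without the array labelled transgenic paraquat replicate 3, 6 genes were called in the transgenic (0.0723%), namely Plin4, Cdkn1a, Sgk3, Xdh, Fkbp5 and Sostdc1. The 95% confidence interval of the difference, not adjusted for the number of genes, had a half-width of 0.38 for the median gene. For a typical gene a smaller difference could thus not pass even an unadjusted test. A call needed more, since Polr3e missed the adjusted threshold with a difference of -0.96 ± 0.18 (SE, adjusted p = 0.051).

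Lcn2 encodes lipocalin-2, a secreted iron-siderophore carrier of the acute-phase response and of reactive glia, and belongs to the same protein family as ApoD. It read 4.28, 4.19 and 4.10 on the knock-out saline arrays and 6.61, 6.98 and 7.46 on the knock-out paraquat arrays. In the transgenic it read 4.0, 4.37 and 4.09 with saline and 4.85, 4.69 and 4.13 with paraquat. Every knock-out paraquat array was thus above every transgenic paraquat array, while the saline arrays of both genotypes lay together near 4.2. The log2 effect was 2.83 ± 0.20 (SE, adjusted p = 5.8e-08) in the knock-out against 0.40 in the transgenic, where it did not pass the test. Lcn2 was below the filter level, the 40th percentile of the array (6.31 to 6.41), on all saline and all transgenic paraquat arrays. It was tested only because the 6 wild-type and knock-out paraquat arrays reached that level, so no fold over its low saline values is given. It was not tested under a 60th percentile filter. The effects differed by -2.43 ± 0.28 (SE, n = 3 arrays a group, adjusted p = 0.00028; 95% confidence interval -3.0 to -1.85), which was larger than the spread between pools. The difference was -2.44 without knock-out paraquat 2, -2.21 without transgenic paraquat 3 and -2.23 without both, each past the threshold.

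Sgk3 encodes a serum- and glucocorticoid-regulated kinase that acts downstream of phosphoinositide 3-kinase. It read 7.88, 7.83 and 7.95 on the knock-out saline arrays and 10.19, 9.81 and 9.78 on the knock-out paraquat arrays. In the transgenic it read 7.64, 7.35 and 7.35 with saline and 8.60, 8.12 and 7.65 with paraquat. Transgenic paraquat replicates 1 and 2 were above the transgenic saline arrays, while the array labelled replicate 3 (7.65) was level with the highest of these (7.64). All transgenic paraquat arrays were at least 1 log2 unit below any knock-out paraquat array. The rise was 4.12-fold in the knock-out and 1.60-fold in the transgenic, 33.0% of the knock-out effect on the log2 scale. Without transgenic paraquat 3 the transgenic effect was 0.91 on that scale, against 0.67 with it and 2.04 in the knock-out. The difference was -1.37 ± 0.24 (SE, adjusted p = 0.037), and the other 2 probe sets of the gene gave -1.38 and -1.25. It was -1.43 (adjusted p = 0.047) without knock-out paraquat 2, -1.13 (adjusted p = 0.031) without transgenic paraquat 3 and -1.19 (adjusted p = 0.016) without both. The call was lost on leaving out knock-out saline 1 (adjusted p = 0.14), 2 (0.16) or 3 (0.057), knock-out paraquat 1 (0.14), transgenic saline 1 (0.075) or 2 (0.077), or transgenic paraquat 2 (0.077), with differences between -1.42 and -1.24. It was also lost (adjusted p = 0.053) without the 108 genes (1.3%) that, like Lcn2, had fewer than 3 arrays at the filter level outside wild-type and knock-out paraquat, a setting chosen after seeing the data.

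Apod itself was the third gene with a difference below 0. Its knock-out signal rose from 8.40, 8.22 and 8.50 with saline to 9.63, 9.83 and 9.16 with paraquat, whereas the transgenic arrays with paraquat read 12.13, 12.29 and 12.32, close to transgenic saline. All knock-out paraquat arrays were above all knock-out saline arrays and all were far below the transgenic and wild-type arrays. The knock-out effect was 1.16 ± 0.13 (SE, adjusted p = 3.2e-05), the transgenic effect -0.05 and the wild-type effect 0.19 (adjusted p = 0.81), so nearly all of the difference came from the residual signal of the targeted gene in the knock-out. It was -1.21 ± 0.19 (adjusted p = 0.016) with all arrays, -1.06 without knock-out paraquat 2 (adjusted p = 0.015) and -1.25 without transgenic paraquat 3 (adjusted p = 0.021). The call was lost on leaving out knock-out saline 1 (-1.22, adjusted p = 0.057) or 2 (-1.13, adjusted p = 0.098), knock-out paraquat 1 (-1.16, adjusted p = 0.076) or transgenic saline 2 (-1.21, adjusted p = 0.058).

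Fos, the immediate early transcription factor gene that marks recent neuronal activity, was the 1 gene with a called difference above 0. It read 10.32, 10.39 and 9.96 on the knock-out saline arrays and 8.01, 7.33 and 8.72 on the knock-out paraquat arrays. In the transgenic it read 9.57, 8.53 and 8.98 with saline and 8.62, 8.95 and 8.95 with paraquat. The knock-out groups did not overlap, the transgenic groups did, and the saline arrays of the transgenic were all below those of the knock-out. Fos fell by 2.2 ± 0.26 (SE) on the log2 scale in the knock-out (adjusted p = 3.2e-05), with a transgenic effect of -0.18. The difference was 2.02 ± 0.36 (adjusted p = 0.041). It held 2 parts, a transgenic level below the knock-out under saline (-1.20, adjusted p = 0.0077, in a comparison that called 9.33% of all genes) and above it under paraquat (0.82, adjusted p = 0.036, in one that called 15.4%). The call was lost without knock-out paraquat 2 (1.67, adjusted p = 0.066), without transgenic paraquat 3 (1.97, adjusted p = 0.075) and without both (1.62, adjusted p = 0.10). Leaving out knock-out saline 1 (adjusted p = 0.15) or 2 (0.19), knock-out paraquat 1 (0.14), transgenic saline 2 (0.14) or 3 (0.059), or transgenic paraquat 2 (0.082) also ended it, with differences between 1.77 and 2.01. Without the 108 genes that passed the filter only through wild-type and knock-out paraquat arrays its adjusted p was 0.053.

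**Figure D1:**
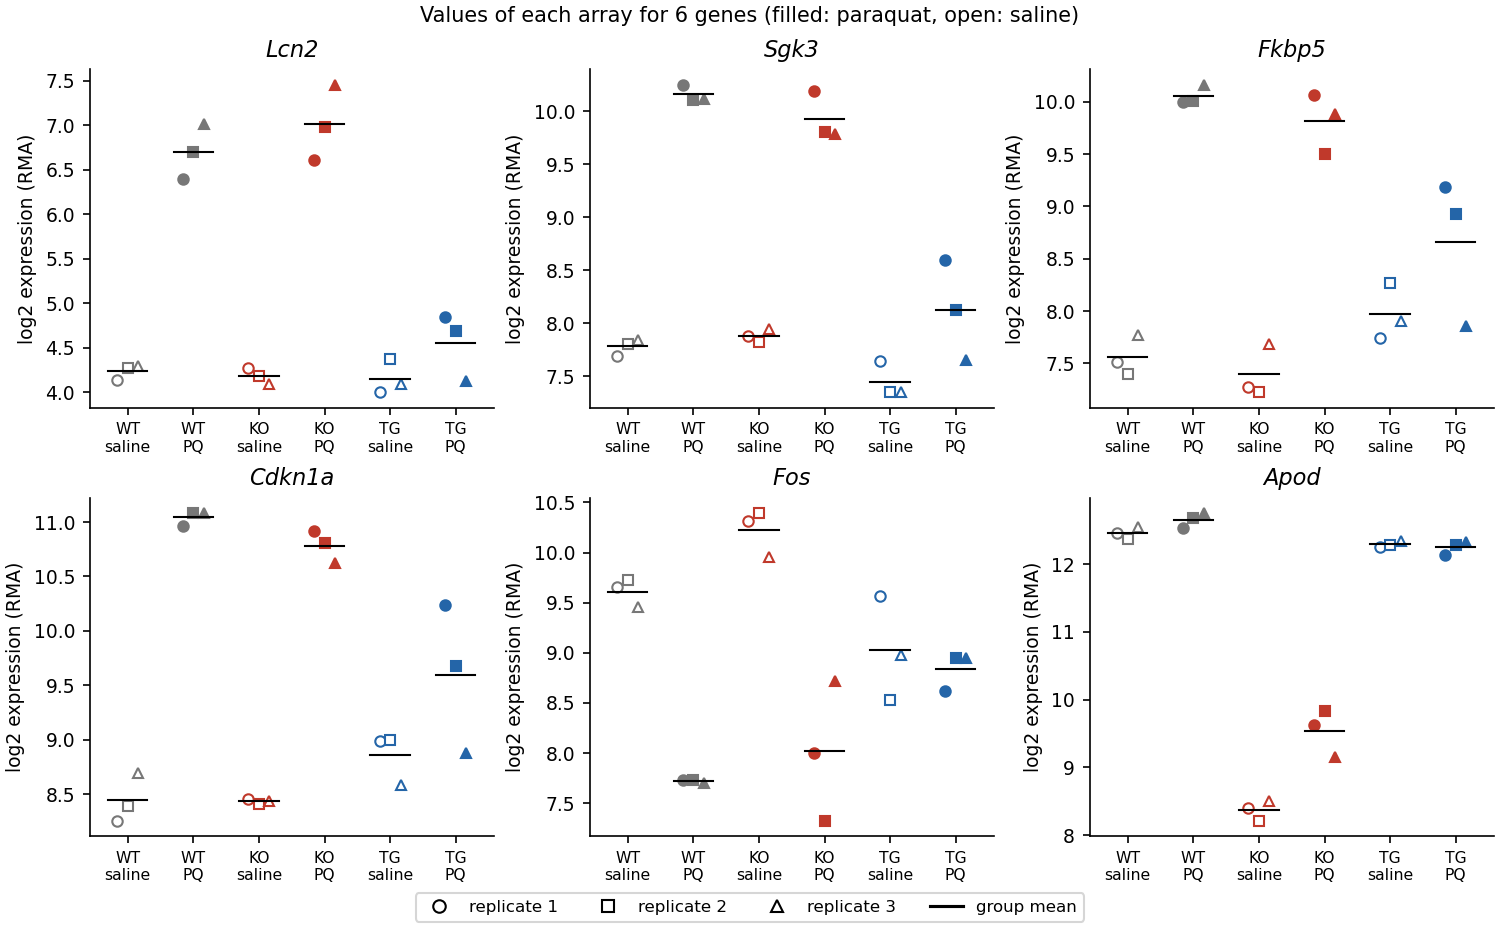
Log2 expression of Lcn2, Sgk3, Fkbp5, Cdkn1a, Fos and Apod on each of the 18 arrays, with open symbols for saline, filled symbols for paraquat (PQ), shape for the replicate number and a line at the group mean; each panel has its own axis, which does not start at 0. For Lcn2, Sgk3, Fkbp5 and Cdkn1a the transgenic (TG) paraquat arrays all lie below the knock-out (KO) paraquat arrays, with the array labelled replicate 3 lowest.

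The glucocorticoid response list holds 46 genes, the receptor's own gene Nr3c1 and others that the receptor is known to induce or that commonly rise with glucocorticoids. The list was written with earlier results of these data known, so it is not independent of them. Of the 46, 38 passed the filter on low values, and 29 of these are among the genes raised by paraquat in wild-type. Of the 38, 2 were called below 0 (0.0362% of all genes were), Lcn2 and Sgk3, and none above. An unadjusted p under 0.05 below 0 was found for 23 (60.5%, against 1.57% of all genes). Above 0 there were 2 (Dusp1 and Nr3c1), against 2.49%. Angptl4, Lcn2, Map3k6 and Zbtb16 passed the filter only through wild-type and knock-out paraquat arrays, and the list's median difference was -0.56 without these 4 as well. The median difference of the list was -0.56, with 32 of 38 below 0, beside a median of 0.06 over all genes tested, of which 34.9% were below 0. The median paraquat effect of the list was 0.72 in the knock-out, 0.19 in the transgenic and 0.97 in wild-type, while under saline the transgenic minus knock-out median was 0.08. For 19 of the 38 (50%) all knock-out paraquat arrays were above all transgenic paraquat arrays, against 7.81% of all genes. The counts of 23, 32 and 19 were taken over all 38. These hold the 4 genes (10.5%, against 1.3% of all genes) for which the filter favours this order. The counts were not redone without them. The list's median difference was -0.66 without knock-out paraquat 2, -0.49 without transgenic paraquat 3 and -0.53 without both. Over all genes these medians were -0.04, 0.08 and -0.02.

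Fkbp5, which encodes a co-chaperone that dampens the glucocorticoid receptor in a feedback loop, missed the threshold with all arrays. It read 7.28, 7.22 and 7.69 on the knock-out saline arrays and 10.06, 9.51 and 9.89 on the knock-out paraquat arrays. In the transgenic it read 7.74, 8.27 and 7.91 with saline and 9.19, 8.93 and 7.86 with paraquat. The array labelled transgenic paraquat 3 lay inside the saline range and the other two between the saline and the knock-out paraquat arrays. The difference was -1.73 ± 0.34 (SE, adjusted p = 0.063), and -1.07 on the gene's other probe set. It was -1.89 (adjusted p = 0.066) without knock-out paraquat 2. It passed the threshold without transgenic paraquat 3 (-1.33, adjusted p = 0.040) and without both arrays (-1.49, adjusted p = 0.013).

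Cdkn1a, the gene of the p21 protein that halts the cell cycle, showed the same order of groups. It read 8.45, 8.42 and 8.44 on the knock-out saline arrays and 10.92, 10.80 and 10.62 with paraquat, and 8.99, 9.0 and 8.59 on the transgenic saline arrays and 10.24, 9.68 and 8.88 with paraquat. The knock-out rise was 5.08-fold, and the transgenic paraquat arrays spread over more than 1 log2 unit with replicate 3 again in the saline range. The difference was -1.61 ± 0.31 (SE, adjusted p = 0.051), and -0.99 on the gene's other probe set. It was -1.60 (adjusted p = 0.11) without knock-out paraquat 2 and -1.24 (adjusted p = 0.054) without both arrays, and passed the threshold without transgenic paraquat 3 alone (-1.25, adjusted p = 0.031). Cdkn1a is also a p53 target. Of the 27 genes tested in the p53 list, 0 were called, and the median difference was 0.01. In each direction 2 (7.41%) had an unadjusted p under 0.05, against 1.57% of all genes below 0 and 2.49% above.

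Plin4, which encodes a coat protein of lipid droplets, had the largest knock-out effect of the list, 9.22-fold. It read 6.28, 5.78 and 6.59 on the knock-out saline arrays and 9.51, 9.17 and 9.59 with paraquat, against 5.91, 6.79 and 6.69 on the transgenic saline arrays and 8.80, 8.36 and 6.25 with paraquat. Transgenic paraquat replicates 1 and 2 lay below all knock-out paraquat arrays but well above the saline arrays, and the array labelled replicate 3 was in the saline range. The difference of -1.87 ± 0.59 (SE) had an adjusted p of 0.75, and without transgenic paraquat 3 it was -1.09 (adjusted p = 0.70), with a transgenic effect of 2.11 that passed the test on its own (adjusted p = 0.0015). Of the 39 lipid transport and lipid droplet genes tested, Apod alone was called (0.0362% of all genes were called below 0). The median difference of these 39 was 0.02.

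Further members of the glucocorticoid list, of which Angptl4, Sult1a1, Pnpla2 and Nr3c1 were picked after their values were seen, did not pass the test on the difference. Map3k6, a mitogen-activated protein kinase kinase kinase, had a difference of -1.49 (adjusted p = 0.13) and was below the filter level on all saline and transgenic arrays. The secreted lipase inhibitor Angptl4 had -1.22 (adjusted p = 0.17), the sulfotransferase Sult1a1 -1.22 (adjusted p = 0.22) and the triglyceride lipase Pnpla2 -0.82 (adjusted p = 0.20). The metallothionein Mt2, a metal-binding antioxidant protein, had -1.01 (adjusted p = 0.15), and the growth-arrest gene Gadd45g -0.64 (adjusted p = 0.13). Each of these 6 genes rose with paraquat in the knock-out and in wild-type. The receptor's own gene Nr3c1 had a difference of 0.47 and the phosphatase gene Dusp1 one of 0.81 (adjusted p = 0.23), both with knock-out effects below 0 that passed the test.

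The palindrome made of GNACA, 3 bases of any kind and TGTNC, the form of element that the glucocorticoid receptor binds as a dimer, was searched on both strands in the 250 bases before the start of each promoter in the RefSeq table (GRCm38.p6). It was present in 0.387% of all 32851 promoters and in 0.271% of the 8840 promoters of genes tested, and in 4 of 40 promoters (10%) that stand for 29 of the 38 list genes. The windows of those 4 genes are shown because they hold the palindrome, which is in capitals. Each window is read 5′ to 3′ up to the base before the start. They lie on the plus strand at chr10:21993640-21993889 (Sgk1), chr4:133240568-133240817 (Map3k6), chr3:96557707-96557956 (Txnip) and chr8:94178839-94179088 (Mt1), and the palindrome begins at position -188, -181, -172 and -94 from the start, respectively.
Sgk1: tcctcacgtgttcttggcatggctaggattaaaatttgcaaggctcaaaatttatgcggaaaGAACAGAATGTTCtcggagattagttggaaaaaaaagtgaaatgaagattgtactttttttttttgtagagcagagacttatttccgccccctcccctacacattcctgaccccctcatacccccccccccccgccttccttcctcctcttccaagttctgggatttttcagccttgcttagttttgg
Map3k6: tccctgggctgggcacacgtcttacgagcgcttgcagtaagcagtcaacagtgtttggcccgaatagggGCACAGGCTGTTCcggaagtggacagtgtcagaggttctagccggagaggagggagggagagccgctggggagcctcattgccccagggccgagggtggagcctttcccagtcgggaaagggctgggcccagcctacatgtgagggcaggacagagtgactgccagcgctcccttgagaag
Txnip: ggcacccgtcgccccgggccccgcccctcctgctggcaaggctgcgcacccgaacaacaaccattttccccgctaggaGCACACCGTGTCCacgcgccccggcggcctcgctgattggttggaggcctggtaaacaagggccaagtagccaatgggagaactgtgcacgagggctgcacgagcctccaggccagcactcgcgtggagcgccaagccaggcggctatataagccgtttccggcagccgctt
Mt1: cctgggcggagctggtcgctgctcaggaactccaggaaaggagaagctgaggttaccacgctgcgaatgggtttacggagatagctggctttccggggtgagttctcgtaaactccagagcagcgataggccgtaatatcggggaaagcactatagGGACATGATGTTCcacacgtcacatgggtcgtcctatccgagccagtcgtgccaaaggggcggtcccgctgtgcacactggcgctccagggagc

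A match is a description of these letters and not evidence of binding. Sgk1, a glucocorticoid-induced kinase gene and paralog of Sgk3, rose by 1.40 in the knock-out, with 9.81, 9.88 and 10.25 under saline and 11.64, 11.19 and 11.33 under paraquat. The transgenic arrays read 10.56, 10.78 and 9.90 with saline and 11.04, 10.81 and 9.83 with paraquat. Both transgenic arrays numbered 3 were the lowest of their group, and the saline and paraquat groups overlapped. The difference was -1.26 ± 0.34 (SE, adjusted p = 0.40). Txnip, which encodes a thioredoxin-binding protein, had a difference of -1.04 (adjusted p = 0.17), and Mt1 one of -0.63 (adjusted p = 0.44). The shorter motif TGTTCT, which can overlap the palindrome, was in 15% of list promoters, 10.9% of those of genes tested and 16.1% of all, and the E-box CACGTG in 17.5%, 8.52% and 6.02%. The windows of Lcn2, Fos and Apod held none of the 3 motifs, and that of Fkbp5 held CACGTG.

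The genes called for paraquat in wild-type were chosen on arrays that the difference does not use, apart from the shared spread. Of the 127 raised in wild-type (1.53% of all genes), 125 had a difference below 0, against 34.9% of all genes. An unadjusted p under 0.05 below 0 was found for 70 (55.1%, against 1.57% of all genes), but only Lcn2 and Sgk3 were called (0.0362% of all genes). Of the 127, 15 passed the filter only through wild-type and knock-out paraquat arrays, and without them the median difference was -0.41. Their median paraquat effect was 0.70 in wild-type, 0.52 in the knock-out and 0.10 in the transgenic, and the median difference of all 127 was -0.43. Under saline the transgenic minus knock-out median was 0.06, and under paraquat -0.41. All knock-out paraquat arrays were above all transgenic ones for 64 of the 127 (50.4%, against 7.81% of all genes). The counts of 125, 70 and 64 were taken over all 127. These hold the 15 genes (11.8%, against 1.3% of all genes) for which the filter favours this order. The counts were not redone without them. Of these 127 genes, 29 are in the glucocorticoid list. Of the 39 lowered in wild-type (0.47%), 36 had a difference above 0 (65.1% of all genes did), with a median of 0.42. An unadjusted p under 0.05 above 0 was found for 22 (56.4%, against 2.49% of all genes), and Fos alone was called (0.0121% of all genes). For 20 of the 39 (51.3%) all knock-out paraquat arrays were below all transgenic ones, against 15.1% of all genes.

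Most of the wild-type genes kept their direction in the transgenic with a smaller size. Of the 166, 160 had a smaller effect in the transgenic than in the knock-out, 134 kept the wild-type direction in the transgenic and 166 in the knock-out. The slope of the genotype's effect on the wild-type effect through the origin over these 166 genes was 0.23 for the transgenic and 0.86 for the knock-out. It was 0.36 for the transgenic without the array labelled paraquat 3, and 0.89 for the knock-out without paraquat 2. Both slopes share the wild-type arrays that chose the genes. Across all 8298 genes, which are not independent replicates, the transgenic and knock-out effects correlated at Pearson's r 0.45 and Spearman's rho 0.40 with a slope of 0.22. The median difference of the raised genes was -0.51 without knock-out paraquat 2, -0.34 without transgenic paraquat 3 and -0.41 without both, with 126, 122 and 126 of 127 below 0. Of all genes, 60%, 33% and 55.5% were below 0 in these 3 settings.

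**Figure D2:**
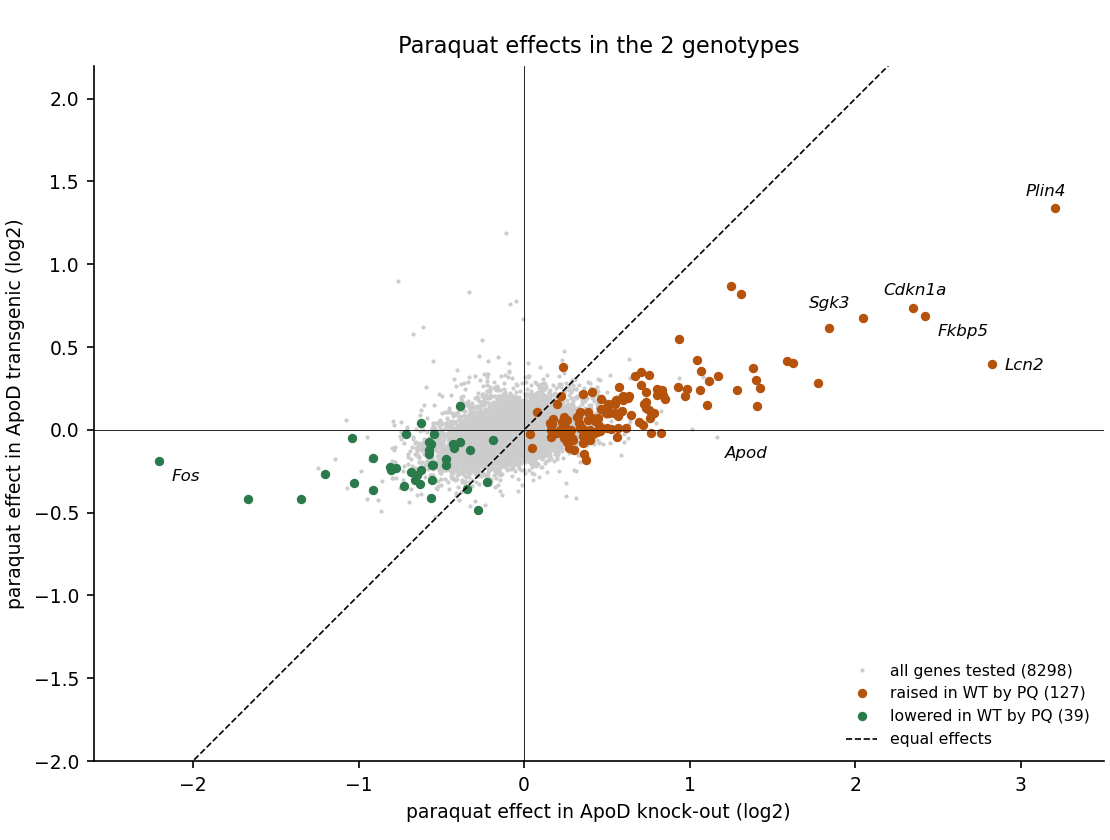
Paraquat effect (log2) in the ApoD transgenic (vertical axis) against that in the ApoD knock-out (horizontal axis) for the 8298 genes tested (grey), with the 127 genes raised and the 39 lowered by paraquat (PQ) in wild-type (WT) in colour and a dashed line at equal effects. The coloured points lie along a line flatter than the dashed one, with 160 of 166 nearer to 0 in the transgenic than in the knock-out.

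**Figure D3:**
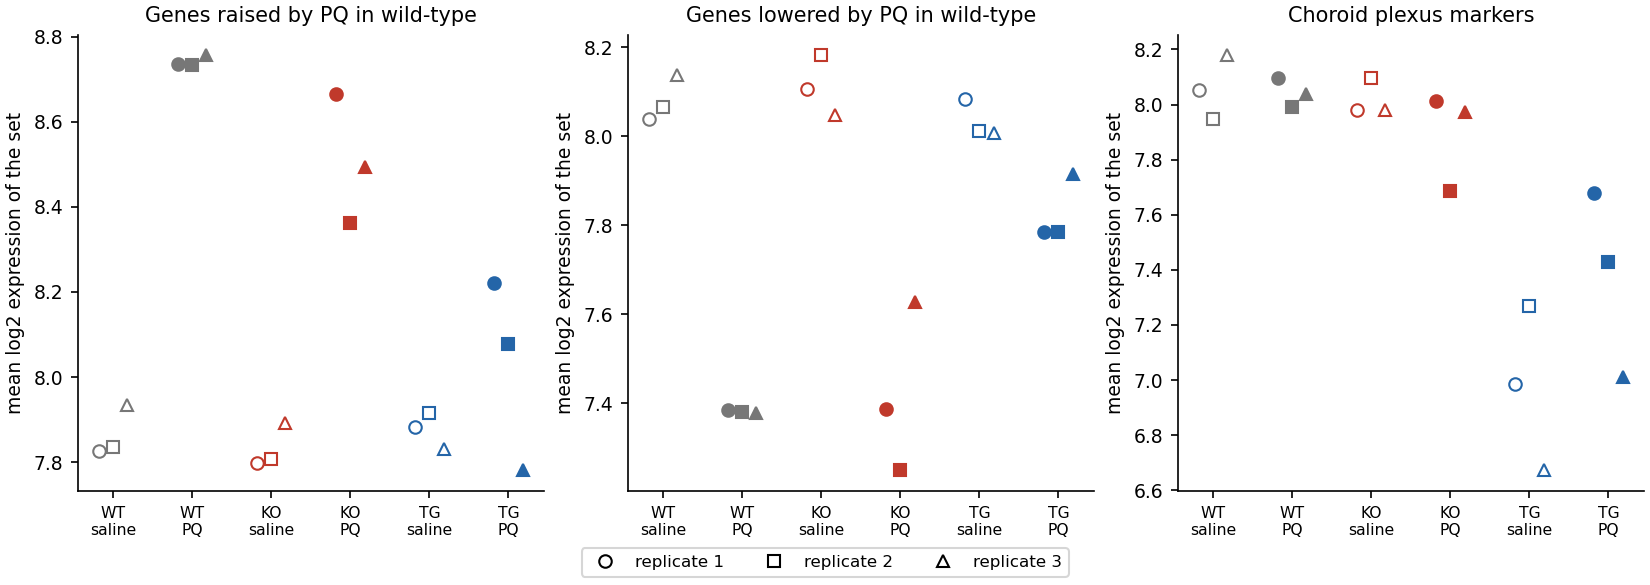
Mean log2 expression on each of the 18 arrays of the 127 genes raised (left) and the 39 lowered (middle) by paraquat in wild-type, and of the 17 choroid plexus markers tested (right); open symbols are saline, filled symbols paraquat, and shape gives the replicate number. In the left panel the array labelled transgenic paraquat replicate 3 (7.78) lies at the transgenic saline arrays, and in the right panel all transgenic saline arrays (6.67 to 7.27) lie below all wild-type and knock-out arrays.

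Of 41 inflammation and acute-phase genes, 12 were tested. For the others, a low signal and the lack of a usable probe set were not told apart. Lcn2 was the 1 member called (0.0362% of all genes were called below 0), and 8 of 12 were below 0 (34.9% of all genes were). The median difference was -0.37 (knock-out effect 0.46, transgenic 0.09). Without Lcn2 and Lrg1, which passed the filter only through wild-type and knock-out paraquat arrays, the median was -0.19. Lrg1, a secreted leucine-rich acute-phase glycoprotein, read 4.76, 4.90 and 4.82 on the knock-out saline arrays and 6.37, 6.29 and 6.09 with paraquat. Transgenic values were 4.91, 5.35 and 5.05 with saline and 5.55, 5.44 and 5.09 with paraquat, so that every knock-out paraquat array was above every transgenic one. Its difference was -1.17 ± 0.24 (SE, adjusted p = 0.074). Lrg1 reached the filter level on 3 of 18 arrays, all of them wild-type or knock-out paraquat, and it was not tested under the 60th percentile filter. The chemokine gene Cxcl12 went the other way (0.93, adjusted p = 0.15), since it fell in the knock-out by 1.35 and had a transgenic effect of -0.42 that did not pass the test. A second Cxcl12 probe set (mean 7.87) gave a difference of 0.19.

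Among the immediate early genes, which respond within minutes to hours of neuronal or growth-factor signals, 24 of 33 were tested. Fos alone was called (0.0121% of all genes were called above 0). The list's median difference was 0.11, close to 0.06 over all genes, with 6 members (25%, against 2.49% of all genes) at an unadjusted p under 0.05 above 0 and 1 (4.17%, against 1.57%) below. Nr4a1, an orphan nuclear receptor gene, read 8.92, 9.27 and 8.78 on the knock-out saline arrays and 7.78, 7.86 and 8.21 with paraquat. The transgenic arrays stayed between 8.05 and 8.46, with 8.17, 8.05 and 8.46 under saline and 8.16, 8.12 and 8.26 under paraquat. As for Fos, the knock-out fell from a saline level above that of the transgenic. The difference was 0.99 ± 0.19 (SE, adjusted p = 0.051), and under saline the transgenic was lower by -0.76 (adjusted p = 0.0026). Nr4a2 had a difference of 1.25 (adjusted p = 0.83), or 0.47 on another probe set, and Dusp1 one of 0.81. Egr1, Arc and Junb had differences of 0.42, 0.26 and 0.12, each with an adjusted p of 0.997.

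Other genes with small p-values came from several families. Polr3e, which encodes a subunit of RNA polymerase III, read 9.26, 9.18 and 8.75 on the knock-out paraquat arrays and 8.17, 8.11 and 8.30 on the transgenic ones, with a difference of -0.96 ± 0.18 (SE, adjusted p = 0.051). The groups did not overlap. The elastase inhibitor Serpinb1a (0.93, adjusted p = 0.082), the mesenchymal homeobox gene Prrx1 (0.90, adjusted p = 0.082), the hyaluronan receptor Cd44 (1.01, adjusted p = 0.16) and the hexokinase gene Hk2 (0.69, adjusted p = 0.20) fell in the knock-out and did not pass the test in the transgenic. Other, dimmer probe sets gave 0.17 for Serpinb1a, 0.06 for Cd44 and -0.04 to 0.18 for Prrx1. Prrx1 was tested only because the 3 wild-type saline and 3 knock-out saline arrays reached the filter level, which no other array did. Smim3, a small membrane protein gene, had -0.85 (adjusted p = 0.13). Higd1b, a pericyte-enriched gene, had -0.72 (adjusted p = 0.17), and neither genotype's effect on its own passed the test. Higd1b reached the filter level on 6 arrays, among them 2 wild-type paraquat and 2 knock-out paraquat arrays and no transgenic paraquat array. It is 1 of the 108 genes that passed the filter only through wild-type and knock-out paraquat arrays.

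**Figure D4:**
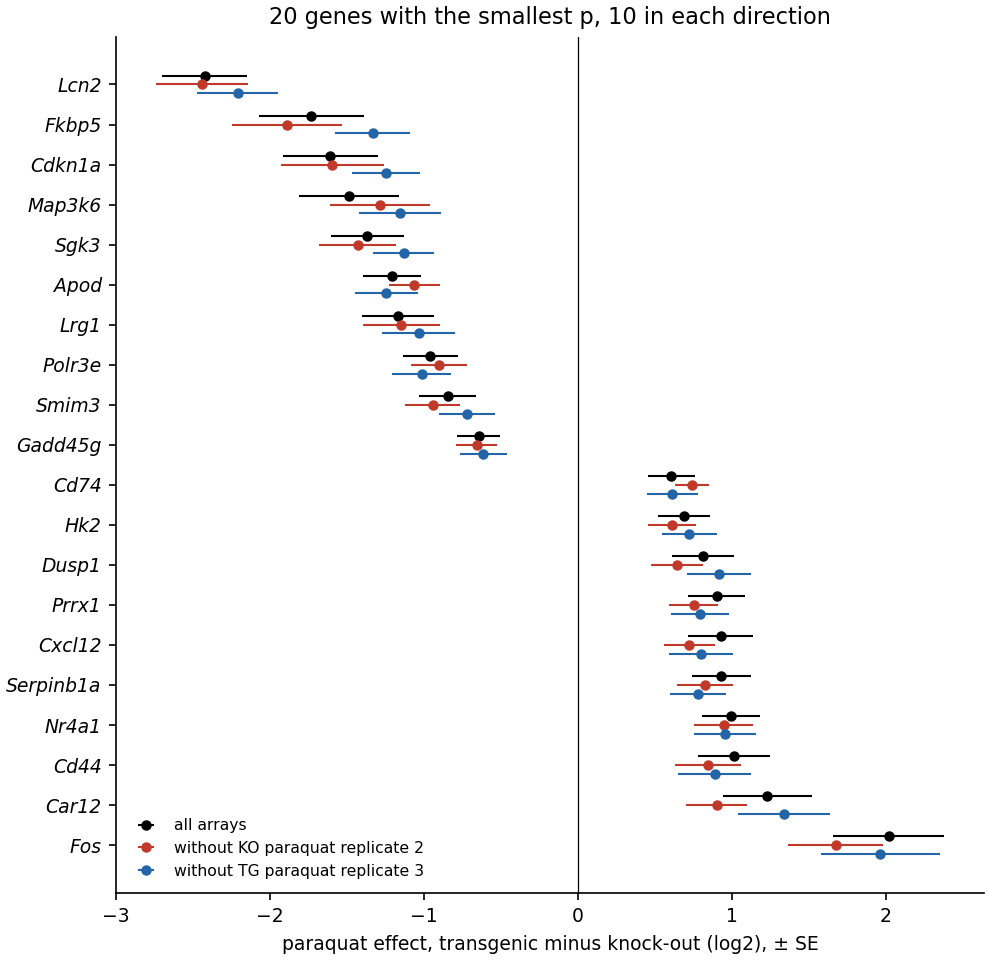
Difference of the paraquat effect, transgenic minus knock-out (log2, points with bars of ± 1 standard error), for the 10 genes below 0 and the 10 above 0 with the smallest p-values, with all arrays (black), without knock-out (KO) paraquat replicate 2 (red) and without transgenic (TG) paraquat replicate 3 (blue). All 20 genes keep their direction in the 3 settings, from Lcn2 at -2.43 to Fos at 2.02 with all arrays.

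Cd74, the invariant chain of MHC class II made by microglia and other antigen-presenting cells, was called when knock-out paraquat 2 was left out. It read 7.1, 7.07 and 6.99 on the knock-out saline arrays, 6.62, 6.97 and 6.50 with paraquat, and 6.42, 6.41 and 6.49 on the transgenic saline arrays against 6.74, 6.65 and 6.67 with paraquat. Knock-out paraquat 2 was the highest of its group and above every transgenic array. The difference was 0.61 (adjusted p = 0.24) with all arrays, 0.74 (adjusted p = 0.014) without that array and 0.75 (adjusted p = 0.013) when transgenic paraquat 3 was left out too. Under saline Cd74 was already lower in the transgenic (-0.62, adjusted p = 0.0026), and under paraquat with all arrays the genotypes differed by -0.01. With knock-out paraquat 2 left out, the remaining knock-out paraquat arrays (6.62 and 6.50) were below all transgenic paraquat arrays (6.65 to 6.74). Cd74 is also in the leukocyte list, of which 7 of 30 genes were tested and 3 were lower in the transgenic under saline at an adjusted p under 0.05 (6.54% of all genes). The median difference of these 7 was 0.13, or 0.15 without knock-out paraquat 2, where 0 of 7 were below 0 against 60% of all genes. Their mean ran from 6.94 to 7.09 on the knock-out saline arrays and 6.58 to 6.83 on the transgenic saline arrays, and the part of leukocyte RNA in the Cd74 result was not tested.

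Choroid plexus markers had the highest median difference of the 30 lists, 0.47, with 14 of 17 above 0 (65.1% of all genes were), 7 (41.2%, against 2.49%) at an unadjusted p under 0.05 above 0 and 0 called. The plexus is an epithelium of the ventricles that makes cerebrospinal fluid, and its cells can come along with dissected cerebellum. Sostdc1, a secreted antagonist of BMP and Wnt signals, read 7.57, 7.82 and 7.47 on the knock-out saline arrays and 7.25, 6.35 and 6.97 with paraquat. Transgenic values were 5.76, 5.91 and 5.16 with saline and 7.31, 6.67 and 5.55 with paraquat. Its transgenic saline arrays were all below every other group's except for the overlap with transgenic paraquat 3, and its difference was 1.66 (adjusted p = 0.24), or 1.05 on another probe set. It was 1.41 (adjusted p = 0.48) without knock-out paraquat 2, 2.14 (adjusted p = 0.0059) without transgenic paraquat 3 and 1.89 (adjusted p = 0.010) without both. The carbonic anhydrase gene Car12, not a member of that list, had a difference of 1.23 (adjusted p = 0.17). Car12 reached the filter level only on 3 wild-type saline arrays and 1 knock-out saline array. Like the list, Sostdc1 and Car12 were lower in the transgenic than in the knock-out under saline. The list's mean ran from 7.98 to 8.10 on the knock-out saline arrays and 7.69 to 8.01 on the knock-out paraquat arrays. It ran from 6.67 to 7.27 on the transgenic saline arrays and 7.01 to 7.68 on the transgenic paraquat arrays. Without knock-out paraquat 2 the list's median knock-out effect was -0.01, while that of Sostdc1 was -0.51 and that of Car12 -0.28. Under saline 15 of the 17 markers were lower in the transgenic than in the knock-out at an adjusted p under 0.05, against 6.54% of all genes. In pooled tissue, fewer cells of a type and less RNA per cell cannot be told apart. The part of plexus RNA in the Sostdc1 and Car12 results was not tested.

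**Figure D5:**
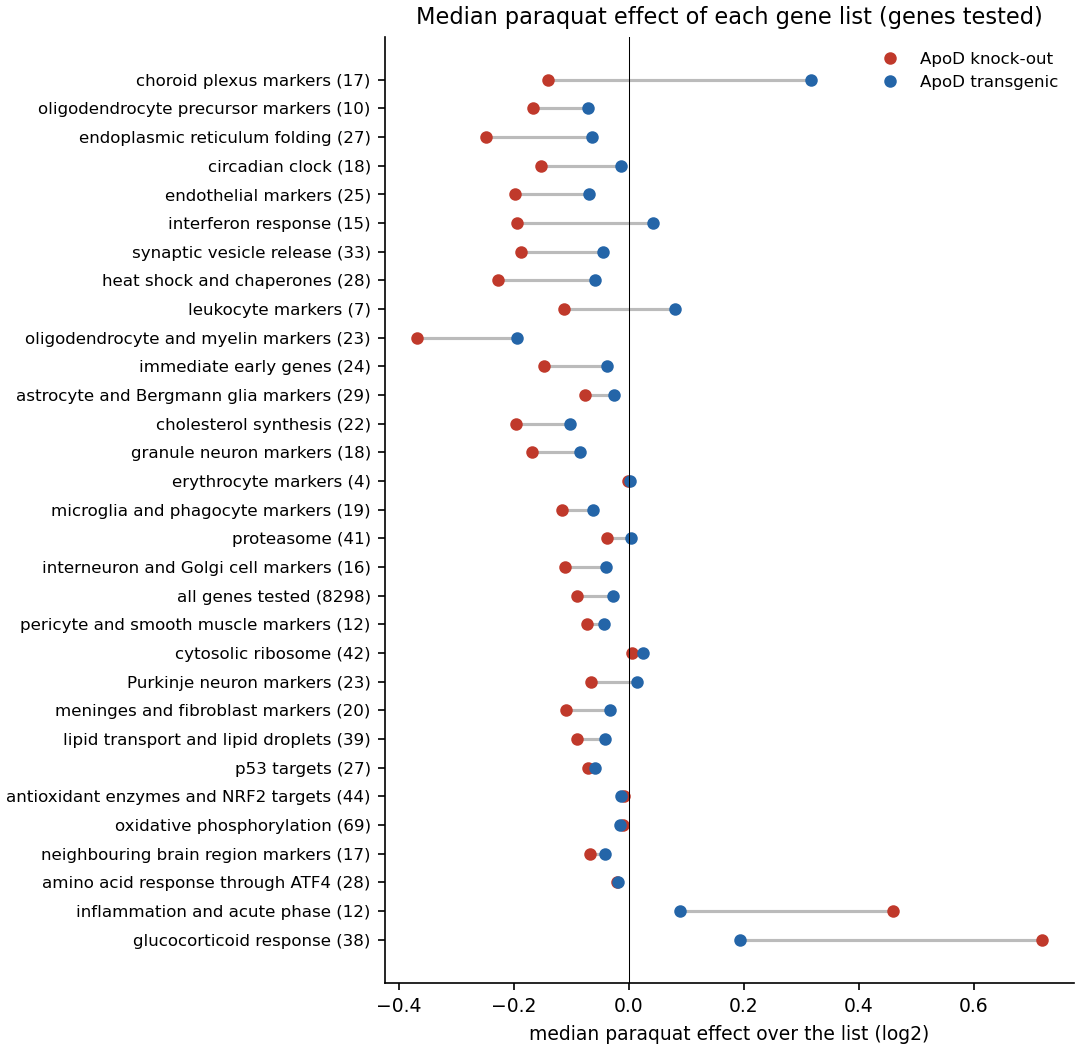
Median paraquat effect (log2, horizontal axis) over the genes tested of each of 30 gene lists and of all 8298 genes, in the ApoD knock-out (red) and the ApoD transgenic (blue), ordered by the median difference, with the number of genes tested in parentheses. The glucocorticoid list has the widest gap below 0 (0.72 against 0.19) and the choroid plexus list the widest above 0 (-0.14 against 0.32).

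The remaining lists had no called member, and their medians were read against the 0.06 of all genes. Antioxidant enzymes and NRF2 targets, which detoxify superoxide products and electrophiles, had a median of 0.00 over 44 genes, with 3 (6.82%, against 1.57% of all genes) at an unadjusted p under 0.05 below 0 and 0 above. These were the metallothioneins Mt2 and Mt1 and the methionine sulfoxide reductase gene Msrb1 (-0.46). The superoxide dismutase genes Sod1 and Sod2 had differences of 0.03 and 0.01. Heat shock and chaperone genes had a median of 0.14, with 26 of 28 above 0 (65.1% of all genes were). Endoplasmic reticulum folding genes had 0.22, with 23 of 27 above 0. Without knock-out paraquat 2 these medians were 0.00 and 0.09, beside -0.04 over all genes. In that setting 13 of 28 and 11 of 27 were below 0, against 60% of all genes. Oxidative phosphorylation, cytosolic ribosome and proteasome genes had medians of -0.02, 0.03 and 0.07, and amino acid response genes -0.03.

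Of the markers of cerebellar cell types, those of granule neurons (0.08), Purkinje neurons (0.02), and astrocytes and Bergmann glia (0.10) had medians close to that of all genes. Oligodendrocyte and myelin markers had 0.12, or -0.03 without knock-out paraquat 2, where the median of all genes was -0.04. On knock-out paraquat 2 the mean of these markers was 9.90, against 10.26 and 10.34 on the other 2 knock-out paraquat arrays. Endothelial markers had 0.18, or 0.09 without knock-out paraquat 2, with 6 of 25 (24%, against 2.49% of all genes) at an unadjusted p under 0.05 above 0 and 3 (12%, against 1.57%) below. Among them the tight junction gene Cldn5 (0.66) and the receptor genes Flt1 (0.66) and Tek (0.55) fell in the knock-out, while the adrenomedullin receptor component Ramp2 (-0.73) and the glucose transporter gene Slc2a1 (-0.63) rose there. None of these 5 endothelial genes passed the test on the difference.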

How the data were processed

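Gene expression was measured on 18 Affymetrix arrays. The deposited values are log2 signals per probe set, between 3.13 and 14.9. The submitters' processing notes name RMA and give no version, and the authors' other steps are not given in the sources used here. Scanner files were not used here, so scan batches were not examined.

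Of 22690 probe sets, 64 were controls, 20380 had 1 symbol in the platform annotation, which can be old, 691 several and 1555 none. For each of 12393 genes the probe set of highest mean was taken. The filter asked for a value at or above the array's 40th percentile on 3 or more arrays, and 8298 genes passed it. All 18 arrays were fitted with 6 group means in limma 3.58.1 (lmFit, eBayes; R 4.3.3), with 12 residual degrees of freedom, two-sided tests and Benjamini-Hochberg adjustment over all genes tested. A call is an adjusted p under 0.05. With 3 against 3 arrays an exact permutation test cannot give a p below 0.1 and was not used. P-values measure the spread between pools.

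The named genes are Apod, the called genes (up to 15 each way), the 10 smallest p-values in a direction with fewer than 10 calls, up to 6 called members or otherwise the member with the smallest p of each of 30 lists, up to 6 each way called only without knock-out paraquat 2, and the 6 largest effects each way among genes called in wild-type. The comparison, lists and rule were chosen with earlier results of these data known. Of 1018 list entries, 709 were tested. Of the 47 named genes, 21 had other probe sets, which all shared the sign for 18 (not for Prrx1, Rpsa and Tfrc). Alternatives varied the arrays, scaling, filter, probe sets and model.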

Additional observations from a re-analysis of the deposited data

Results flagged for a closer look

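The paraquat effect differed between transgenic and knock-out, by the test of the difference itself, for 4 genes. They were Lcn2 (-2.43), Apod (-1.21), Sgk3 (-1.37) and Fos (2.02). Cd74 differed (0.74) when knock-out paraquat replicate 2 was left out. Dixon's test for a single outlying array was not run, since each group held 3 arrays. Among 2246 unnamed or multiply named probe sets, 0 differed at limma's adjusted p under 0.05 and 67 at an unadjusted p under 0.05, with a smallest adjusted p of 0.054.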

How the results depend on the processing

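The count of 4 genes depended on the processing. Leaving out 1 array at a time gave 1 to 12 genes. It was 1 with knock-out saline 1, knock-out saline 2, knock-out paraquat 1 or transgenic saline 2 left out, 2 without transgenic paraquat 2, 7 without transgenic saline 3, 8 without transgenic paraquat 1 and 12 without knock-out paraquat 3. The 12 transgenic and knock-out arrays fitted alone gave 1 gene, quantile normalisation 1 (below 0), subtraction of array medians 11 (2 above 0 and 9 below), no filter 2, the 60th percentile filter 7, the mean of all probe sets 8, array weights 853 (310 above 0 and 543 below) and the fit without both transgenic arrays numbered 3, chosen after seeing the data, 9. Without the 108 genes that passed the filter only through wild-type and knock-out paraquat arrays, also chosen after seeing the data, it was 1 (Apod). The cause was not tested. Lcn2 was called in all 24 settings that tested it, Apod in 20 of 26, Sgk3 in 15 and Fos in 10, with adjusted p-values up to 0.127 for Apod and 0.244 for Sgk3 and Fos. The median difference of the wild-type genes, signed by their wild-type direction, ran from -0.50 to -0.36 and that of the glucocorticoid list from -0.68 to -0.47. Of the named genes Tfrc alone changed sign, to 0.007 with the mean of all probe sets and 0.061 with the second probe set.

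Replicate numbers were not taken as pairs. The correlations of saline and paraquat deviations of the same number were 0.158, 0.128 and 0.417 in the transgenic and 0.085, 0.148 and 0.335 in wild-type, but -0.091, -0.283 and -0.117 in the knock-out. A replicate block over all arrays gave 3 genes and a replicate block within each genotype 20. The block within genotype changed the call of 16 genes that did not pass without it, namely Cdkn1a (adjusted p = 0.00095), Fkbp5, Sgk1, Sostdc1, Lrg1, Mt2, Kcne2, Sult1a1, Serpinb1a, Nr4a1, Map3k6, Txnip, Angptl4, Polr3e, Car12 and Folr1 (0.046). Low signal limited the tests, since 8298 of 12393 genes passed the filter.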
